A study of Homo sapiens with 6 samples.

Results

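NRF2, the transcription factor encoded by NFE2L2, and its repressor KEAP1 were followed together with MAFG and 6 antioxidant genes in LM3 cells depleted of ZNF706. The 9 genes, NFE2L2, KEAP1, MAFG, TXNRD1, SRXN1, NQO1, OSGIN1, HMOX1 and UGDH, were taken by symbol from the 33007 genes of the deposited table. Each symbol occurred once in it. All 9 passed the filter on low counts that left 18390 genes for testing.

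In unstressed cells KEAP1 holds NRF2 in the cytoplasm and presents it to a CUL3 ubiquitin ligase, so that NRF2 is degraded soon after it is made. When electrophiles or oxidants modify cysteines of KEAP1, NRF2 accumulates, pairs with a small MAF protein such as MAFG in the nucleus and binds antioxidant response elements. Its targets renew thioredoxin, reduce quinones, break down heme and supply the building blocks of conjugation reactions, and the pathway is often active in liver cancer. Because NRF2 is mainly controlled through its stability, its mRNA level is not a measure of its activity.

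RNA-seq had been performed on 3 vector control and 3 ZNF706 knockdown samples of LM3, an established human HCC cell line that the labels give the genotype WT in both groups. The knockdown cells carried a lentiviral pLKO.1 vector with a short hairpin RNA against ZNF706 and were puromycin-selected, and no drug or oxidant treatment is given for either group. The labels do not say which hairpin was used or whether the 3 samples of a group were separate cultures, so the p-values measure the spread between these samples, which may be technical. Control libraries held 62684076, 64713764 and 63054445 counts and knockdown libraries 68548419, 65861994 and 69057423, so depth was greater in all knockdown libraries than in any control library.

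ZNF706 had 51.9, 55.1 and 54.7 CPM (read counts scaled to library size by TMM, the CPM unit of edgeR) in the control libraries and 33.5, 30.8 and 32.8 CPM in the knockdown libraries. Its log2 fold change was -0.73 (SE 0.050, edgeR adjusted p = 3.7e-05), so the targeted transcript was lower in every knockdown sample. Of the markers of the labelled cell type, 2 epithelial keratins were abundant, with KRT18 at 271 and KRT8 at 193 FPKM (fragments scaled to transcript length and sequencing depth) in the control group. The other epithelial markers, KRT19 (0.463 FPKM), CDH1 (0.293 FPKM) and EPCAM (0.127 FPKM), were close to 0, as were the hepatocyte markers. ALB, the most abundant of the 11 hepatocyte and HCC markers, had 2.63 FPKM and HNF4A 0.13 FPKM in the control group. The summed FPKM of these 11 markers was 3.73, 8.64 and 10.3 in the control libraries and 4.41, 4.56 and 2.78 in the knockdown libraries. All 10 that could be tested had a log2 fold change below 0, and 2 of them, SERPINA1 (-1.47) and APOB (-0.98), fell by edgeR's adjusted p. The 10 did not vary separately. ALB had 3.05 CPM in control replicate 1, 1.97 CPM in knockdown replicate 3 and 8.37 to 14.4 CPM in the other libraries. AFP, FGB, GPC3, TF and TTR were also lowest in control replicate 1 and knockdown replicate 3, while SERPINA1, APOB, APOA1 and HNF4A were not. Of the 5 epithelial markers none was called by edgeR's adjusted p, while 3 had an unadjusted p below 0.05 and DESeq2 called 2. Limma on FPKM, run where FPKM averaged 1 or more, tested only KRT8 and KRT18 of these and called neither. The log2 fold changes of the 5 were 0.83 for KRT19, 0.75 for EPCAM, 0.59 for CDH1, 0.0057 for KRT8 and -0.10 for KRT18, with a median of 0.59. The part of these markers in the results below was not tested.

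Markers of cells that a pure cell line should lack were low, with exceptions. The summed FPKM of 5 fibroblast markers was 9.26, 7.89 and 8.33 in the control and 9.85, 10.1 and 9.47 in the knockdown samples, most of it from COL1A1, and COL1A1 (0.20) and PDGFRB (0.68) rose on the log2 scale. The other fibroblast markers, LUM (-1.26), COL3A1 (-2.04) and DCN (-0.04), were not called, and the median of the 5 was -0.04. Of the endothelial markers, 3 were in the table and summed to 1.79, 1.91 and 2.06 FPKM in the control and 1.43, 1.61 and 1.69 in the knockdown samples, from CDH5, which fell (-0.70), and PECAM1, which was not called (0.15, edgeR adjusted p = 0.54), while VWF averaged 0.0033 and 0.013 FPKM. The 3 leukocyte markers in the table summed to 10.7, 10.5 and 11.1 FPKM in the control and 16.8, 18.5 and 16.9 in the knockdown samples. CD68, a lysosomal protein that is not limited to macrophages, accounted for this and rose by 0.64 on the log2 scale, whereas the pan-leukocyte gene PTPRC had a mean of 0.0067 FPKM in the control group and was listed at 0 in all knockdown samples. How these markers bear on the 9 genes was not tested.

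Of the 9 genes, 6 fell in ZNF706 knockdown cells with an edgeR adjusted p below 0.05, namely MAFG, TXNRD1, SRXN1, NQO1, OSGIN1 and UGDH, and none rose. Among all 18390 genes tested 22.8% were called, 12.4% as lower and 10.4% as higher. No member was higher by an unadjusted p below 0.05 either, nor by DESeq2 or by limma on FPKM, the latter without OSGIN1. The log2 fold changes were below 0 for 8 genes and above 0 for 1, KEAP1, and their median was -0.19 where that of all genes tested was 0.0095. The CPM values of the groups did not overlap for 6 of the 9 genes, beside 39.4% of all genes, and the deposited FPKM values did not overlap for 4, beside 38.3% of all genes. In bulk samples a lower level in every cell and a level lost from some cells cannot be told apart. The changes were small, between 10.6% and 15.4% for 5 of the 6 genes that fell. The number of calls depended on single libraries and on the scaling. It was 3 without control replicate 2, without control replicate 3, without knockdown replicate 1 and without knockdown replicate 3, and 2 with scaling by library size alone. TXNRD1 and SRXN1 were called in each of the 14 other fits that were run. In the edgeR fit only OSGIN1 had an unadjusted p below 0.05 and a log2 change of 0.3 or more in size, which 15.5% of all genes had. These limits are those of the study, which applied them to DESeq2 results.

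The direction of calls across all genes also moved with the processing. Of the genes called, 45.5% were higher in the knockdown with TMM scaling, 64.4% with scaling by library size alone, 59.7% with limma on FPKM and 63.1% after a trend on GC content had been taken out of each library. The median log2 fold change of all genes was 0.063, 0.027 and 0.060 in these fits in the same order, against 0.0095 with TMM.

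**Figure D1:**
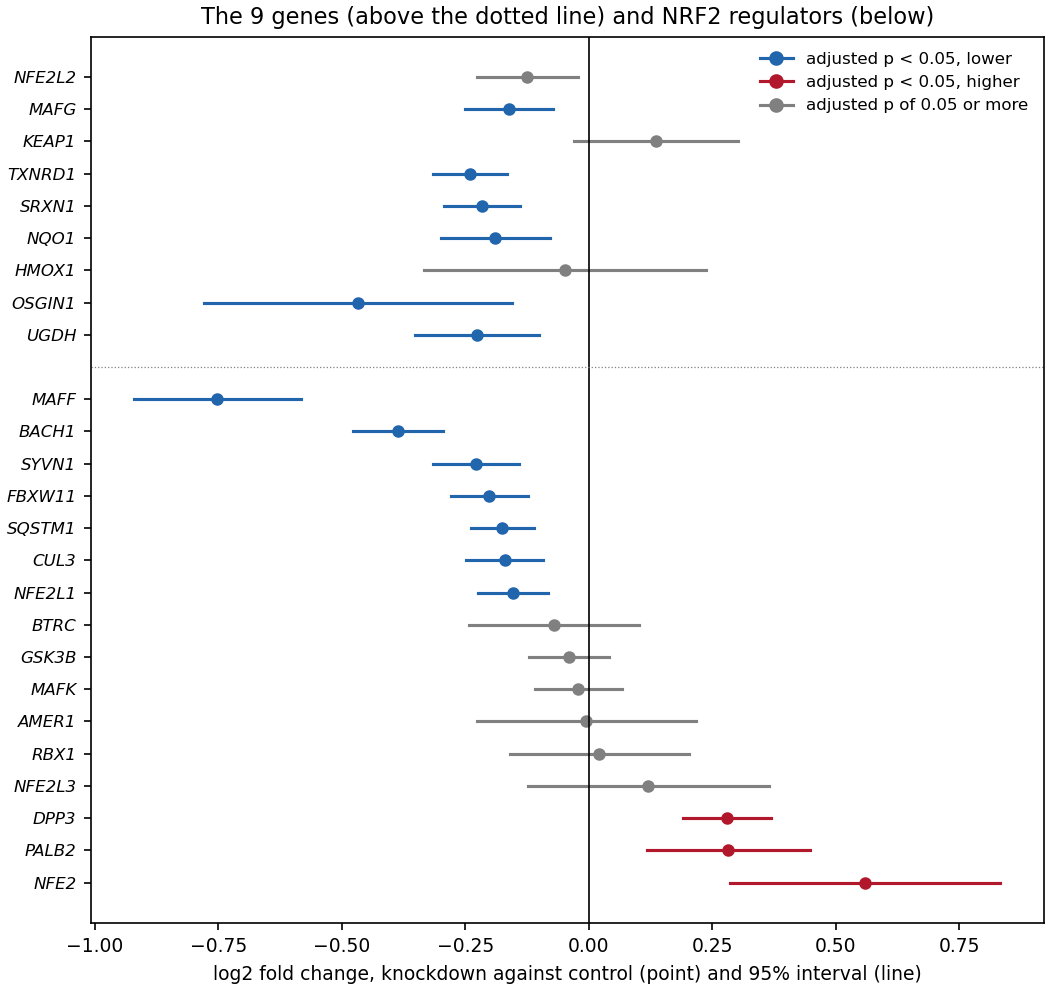
Log2 fold changes of ZNF706 knockdown against control (x axis) with 95% intervals for the 9 genes, above the dotted line, and for regulators of NRF2, below it (BACH2, at a control mean of 0.017 FPKM, is not drawn). Coloured points have an edgeR adjusted p below 0.05. TXNRD1 (-0.24), SRXN1 (-0.22) and MAFF (-0.75) lie to the left of 0 with intervals that do not reach it, and KEAP1 (0.14) and HMOX1 (-0.05) have intervals that span it.

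To see where NRF2 could bind, the bases before each annotated start were searched for TGACNNNGC, the core of the antioxidant response element, on both strands (GCNNNGTCA on the other). RefSeq promoters (GRCh38.p14) were matched for 8 of the 9 genes, 11 starts in all. The core was found within 250 bases before the start in 2 of these 8 genes, TXNRD1 and KEAP1, where 13.2% of the 27305 genes with a promoter and 10.9% of the 35116 promoters hold it. None of the matches contains the AP-1 motif TGANTCA, which can share bases with this core. A match is a description of these letters only, and no match says nothing of elements farther away. The stretch before the first TXNRD1 start, the member with the highest level, lies at chr12:104215529-104215778 on the plus strand outside any exon of GENCODE release 29. It is printed 5′ to 3′ with the core in capitals, 99 to 91 bases before the start.

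TXNRD1 first start: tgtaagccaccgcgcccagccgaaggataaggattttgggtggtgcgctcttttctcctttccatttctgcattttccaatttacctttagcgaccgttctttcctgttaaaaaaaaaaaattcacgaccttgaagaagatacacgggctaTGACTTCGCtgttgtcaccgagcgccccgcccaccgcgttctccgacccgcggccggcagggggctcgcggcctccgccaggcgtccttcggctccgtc

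The remaining matches precede the second start of each gene and are shown with 10 bases on either side, again with the core in capitals, to set the repressor's sites beside those of a target. Each is printed on the strand of its gene. The TXNRD1 window is chr12:104286920-104286948, read on the plus strand, and its core is on the other strand, so that it shows as GCNNNGTCA. The KEAP1 windows are chr19:10502807-10502835, with the core on the strand of the gene, and chr19:10502784-10502812, with the core on the other strand, both read on the minus strand. All 3 windows lie in exons annotated as untranslated in GENCODE release 29.
TXNRD1 second start: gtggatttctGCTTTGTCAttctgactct
KEAP1 second start, farther match: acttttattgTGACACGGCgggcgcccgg
KEAP1 second start, nearer match: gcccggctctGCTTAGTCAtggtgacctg

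FPKM takes gene length into account, so the deposited values allow the levels of the 9 genes to be ordered. TXNRD1 was highest with 105 ± 4.30 FPKM in the control group (SD, n = 3) and made up 42.1%, 41.9% and 41.8% of the summed FPKM of the 9 genes in the control libraries and 41.5%, 40.5% and 39.7% in the knockdown libraries. SRXN1 (43.5 ± 0.523 FPKM) and NQO1 (41.6 ± 2.90 FPKM) followed in the control group and overlapped each other in both groups. NFE2L2 (19.9 ± 0.923 FPKM), UGDH (14.0 ± 1.02 FPKM), MAFG (11.2 ± 0.0361 FPKM), KEAP1 (9.38 ± 0.926 FPKM), HMOX1 (5.46 ± 0.896 FPKM) and OSGIN1 (0.713 ± 0.0611 FPKM) came next, each without overlap with its neighbour. In the knockdown group the order was the same except that KEAP1 (10.7 ± 0.684 FPKM) stood above MAFG (10.3 ± 0.422 FPKM), and these overlapped. The summed FPKM of the 9 genes was 261, 243 and 249 in the control libraries and 227, 225 and 228 in the knockdown libraries.

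**Figure D2:**
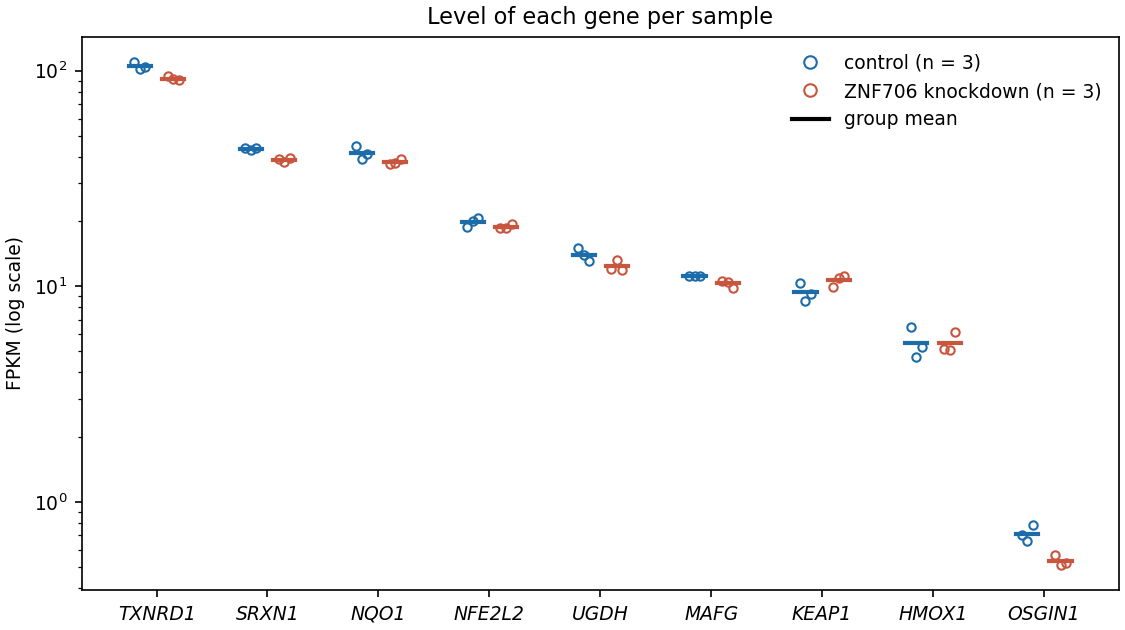
FPKM of each of the 9 genes on a log scale (y axis) in the 3 control and 3 ZNF706 knockdown samples, with points for samples and bars for group means. The order from TXNRD1, at 105 FPKM in the control group, to OSGIN1, at 0.713 FPKM, was the same in both groups except for KEAP1 and MAFG.

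Of the regulators among the 9 genes, NFE2L2 (ENSG00000116044, chromosome 2, 177227595 to 177287777, minus strand, GRCh38) received 7614, 8399 and 8427 reads in control and 8285, 7905 and 8673 reads in knockdown libraries. Its normalised counts were 123, 132 and 137 CPM in the control and 118, 118 and 124 CPM in the knockdown samples. Knockdown replicate 3 lay above control replicate 1, so the groups overlapped. The log2 fold change was -0.12 (95% interval -0.23 to -0.023, edgeR adjusted p = 0.078) and did not pass the threshold. Without control replicate 1, the lowest control sample, it was -0.17 (edgeR adjusted p = 0.025). It was at -0.07 with library size alone (edgeR adjusted p = 0.28), limma on FPKM (adjusted p = 0.22) and the GC trend removed (edgeR adjusted p = 0.33), and 12 of the 14 other fits did not call it. Whether the counting used strand is not given in the sources used here. Among the genes that overlap NFE2L2, the most counted was AC019080 on the same strand, with 54 to 107 counts per sample.

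KEAP1 (ENSG00000079999, chromosome 19, 10486125 to 10503356, minus strand), the adaptor that brings NRF2 to the CUL3 ligase, was the only member with a log2 fold change above 0. It had 42.6, 35.4 and 38.7 CPM in the control libraries and 39.6, 43.6 and 45.0 CPM in the knockdown libraries. Control replicate 1 lay above knockdown replicate 1, and the groups overlapped. The log2 fold change was 0.14 (95% interval -0.030 to 0.30, edgeR adjusted p = 0.23). Fits that omitted a sample gave 0.070 to 0.20, and KEAP1 was not called in any of the 14 other fits.

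The balance of the factor and its repressor within a library does not depend on library scaling. The ratio of NFE2L2 to KEAP1 FPKM was 1.82, 2.36 and 2.23 in the control libraries and 1.88, 1.70 and 1.74 in the knockdown libraries. It averaged 2.14 ± 0.281 (SD, n = 3) for control and 1.77 ± 0.0936 (SD, n = 3) for knockdown samples. The lower mean in the knockdown group came with an overlap, since control replicate 1 lay below knockdown replicate 1. The difference of -0.26 on the log2 scale had p = 0.2 in a two-sided exact permutation test, where 3 samples against 3 cannot give less than 0.1.

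MAFG (ENSG00000197063, chromosome 17, 81918270 to 81927735, minus strand), a small MAF protein that dimerises with NRF2, had 67.0, 67.8 and 68.6 CPM in the control libraries and 62.3, 61.6 and 57.9 CPM in the knockdown libraries. All knockdown samples lay below all control samples, and the control samples were close together, with 67.8 ± 0.815 CPM (SD, n = 3). MAFG fell by 10.6% (log2 fold change -0.16, SE 0.040, edgeR adjusted p = 0.017). The adjusted p passed 0.05 without control replicate 2 (0.054), without control replicate 3 (0.056) and without knockdown replicate 3 (0.057), and with scaling by library size alone the log2 fold change was -0.11 (edgeR adjusted p = 0.092).

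**Figure D3:**
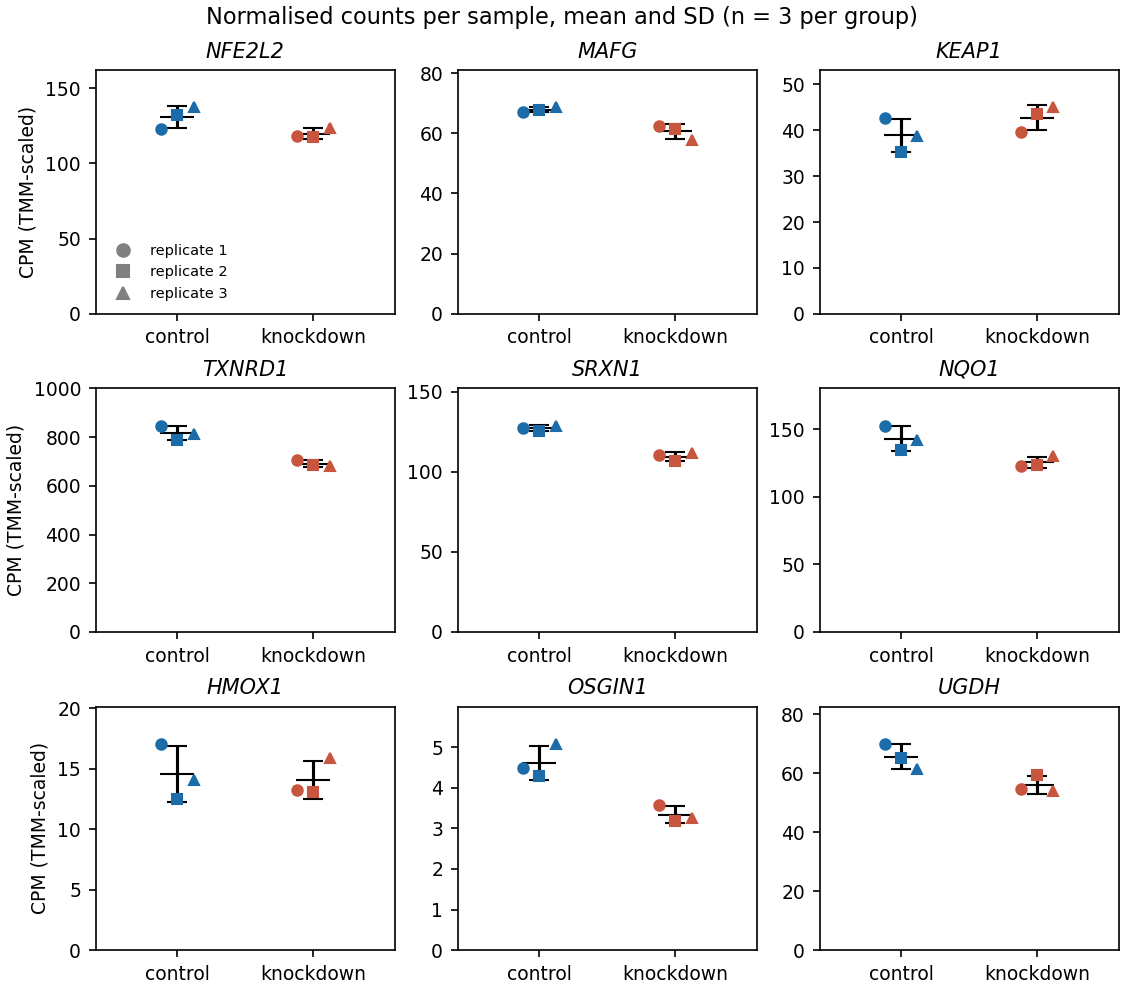
TMM-scaled CPM (y axis, from 0) of each of the 9 genes in every sample, with replicates by symbol and bars for mean and SD (n = 3 per group). The control and knockdown points of NFE2L2, KEAP1 and HMOX1 overlap, while those of TXNRD1 (790 to 848 against 682 to 708 CPM) and SRXN1 (126 to 129 against 107 to 112 CPM) are well apart.

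Both genes that were called in every fit belong to the thioredoxin branch. TXNRD1 (ENSG00000198431, chromosome 12, 104215779 to 104350307, plus strand) encodes cytosolic thioredoxin reductase, the selenoprotein that uses NADPH to renew thioredoxin. It was the most deeply counted of the 9 genes, with 52458, 50238 and 50010 counts in the control and 49665, 45880 and 47748 in the knockdown samples. Scaled to library size, these were 848, 790 and 815 CPM in the control and 708, 684 and 682 CPM in the knockdown samples. The lowest control sample lay above the highest knockdown sample. TXNRD1 fell by 15.4% (log2 fold change -0.24, SE 0.034, edgeR adjusted p = 0.00096). Across the 14 other fits its log2 fold change lay between -0.27 and -0.17 and it was called in all of them. RPL18AP3, a ribosomal protein pseudogene within TXNRD1 on the same strand, held 8.09% as many counts (3410 to 4259 per sample) and was not called (log2 fold change -0.10, edgeR adjusted p = 0.40). AC089983, on the opposite strand within TXNRD1, had 114, 138 and 164 counts in the control and 201, 260 and 271 in the knockdown samples and rose (log2 fold change 0.67, edgeR adjusted p = 0.039). Its reads cannot be told apart from TXNRD1 reads where strand was not used.

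SRXN1 (ENSG00000271303, chromosome 20, 646615 to 653200, minus strand), the sulfiredoxin that repairs overoxidised peroxiredoxins, had 128, 126 and 129 CPM in the control libraries and 110, 107 and 112 CPM in the knockdown libraries. The groups did not overlap, and the gap between them was larger than the range within either. SRXN1 fell by 13.9% (log2 fold change -0.22, SE 0.034, edgeR adjusted p = 0.0019), and it lay between -0.23 and -0.16 in the other fits. AL121758, which covers SRXN1 on the same strand, had no count in any control sample and 7, 8 and 7 counts in the knockdown samples, which was too few to be tested.

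NQO1 (ENSG00000181019, chromosome 16, 69706996 to 69726668, minus strand), a quinone reductase widely used as a readout of NRF2, had 153, 135 and 142 CPM in the control libraries and 123, 124 and 131 CPM in the knockdown libraries. Control replicate 2 and knockdown replicate 3 were the nearest samples of the groups and had the same FPKM, 39.1. NQO1 fell by 12.3% (log2 fold change -0.19, SE 0.049, edgeR adjusted p = 0.021). The call was lost without control replicate 1 (edgeR adjusted p = 0.062), without control replicate 3 (0.056), without knockdown replicate 1 (0.068) and without knockdown replicate 2 (0.091), and also with scaling by library size alone (0.079).

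HMOX1 (ENSG00000100292, chromosome 22, 35380361 to 35390293, plus strand), the inducible heme oxygenase, had 17.1, 12.5 and 14.1 CPM in the control libraries and 13.3, 13.1 and 15.9 CPM in the knockdown libraries. Its control samples spanned its knockdown samples. The log2 fold change was -0.05 (95% interval -0.33 to 0.24, edgeR adjusted p = 0.84), and it was above 0 without control replicate 1 (0.077) and without knockdown replicate 2 (0.0047). A fall as large as that of TXNRD1 lies within this interval.

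OSGIN1 (ENSG00000140961, chromosome 16, 83931311 to 83966332, plus strand), a growth inhibitor induced by oxidative stress, had the lowest level and the largest fold change of the 9 genes. It had 277, 272 and 312 counts in the control and 250, 213 and 228 in the knockdown samples, or 4.48, 4.28 and 5.08 against 3.57, 3.18 and 3.26 CPM. All knockdown samples lay below all control samples. OSGIN1 fell by 27.7% (log2 fold change -0.47, SE 0.14, edgeR adjusted p = 0.037). It was not called in any of the 6 fits with a sample left out, in which the log2 fold change was between -0.52 and -0.40 and edgeR's adjusted p between 0.058 and 0.13, and DESeq2 gave an adjusted p of 0.060. MLYCD, which overlaps OSGIN1 by 20135 bases on the same strand, held 80.6% as many counts and stood at 0.09 on the log2 scale (edgeR adjusted p = 0.75), so the counting could have split reads between the genes.

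Among the 10769 genes with a mean of at least 5 CPM, those whose pattern over the 6 samples was nearest to that of OSGIN1, by the root mean square distance between centred log2 CPM profiles, were EPB41L4A-AS1 (0.036), MT-TL1 (0.038), SIRT1 (0.040), SECTM1 (0.046) and ZRANB1 (0.047). Their log2 fold changes were -0.46, -0.46, -0.45, -0.47 and -0.46 in that order. These values lie near that of OSGIN1 by the choice itself, because the profiles compared hold the group difference. No member rose, so no such genes were sought for a rise.

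UGDH (ENSG00000109814, chromosome 4, 39498755 to 39528233, minus strand) oxidises UDP-glucose to UDP-glucuronate, the donor for glucuronidation. It had 69.9, 65.0 and 61.5 CPM in the control libraries and 54.6, 59.4 and 53.9 CPM in the knockdown libraries. The nearest samples were control replicate 3 and knockdown replicate 2, which did not overlap in CPM but did in FPKM (13.1 and 13.2). UGDH fell by 14.6% (log2 fold change -0.23, SE 0.056, edgeR adjusted p = 0.017). The call was lost without control replicate 1 (edgeR adjusted p = 0.055), without control replicate 2 (0.0502), without knockdown replicate 1 (0.057) and without knockdown replicate 3 (0.061). After removal of the GC trend, the log2 fold change was -0.09 (edgeR adjusted p = 0.28).

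**Figure D4:**
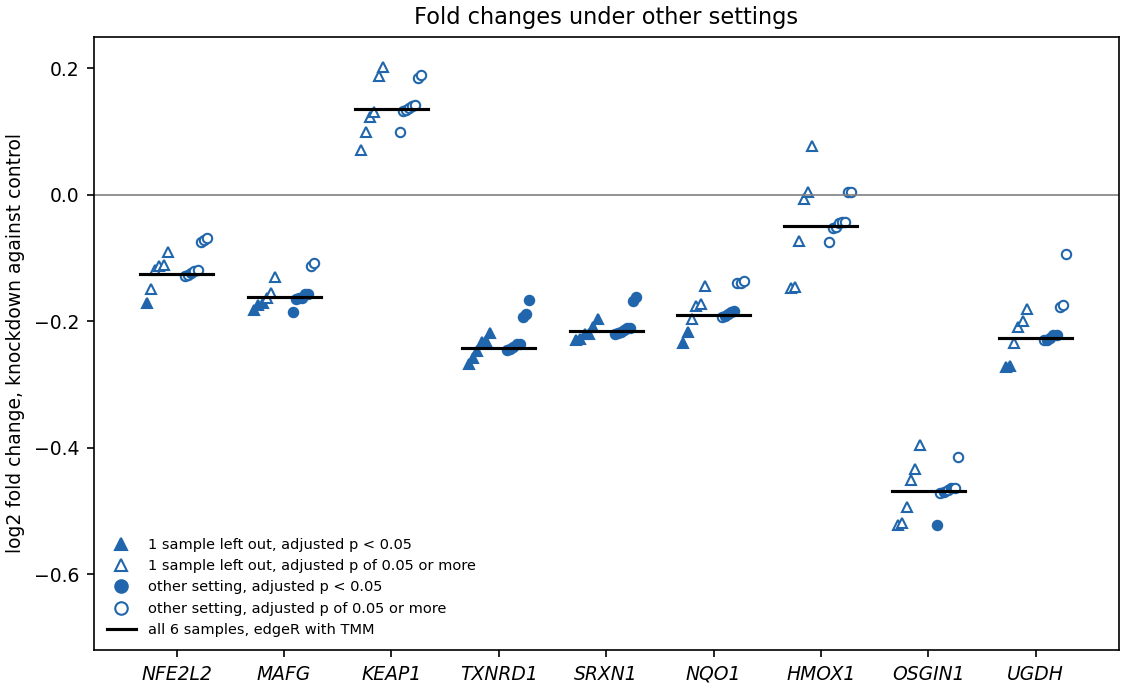
Log2 fold change of each of the 9 genes (y axis) with 1 sample left out (triangles) and under the other settings (circles), where filled symbols have an adjusted p below 0.05 and the bar is the fit with all 6 samples and TMM. TXNRD1 and SRXN1 are filled throughout, every OSGIN1 triangle is open, and HMOX1 lies on both sides of 0.

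The wider NRF2 machinery was then examined with a list of 17 other regulators, all of which were tested. By edgeR's adjusted p, 7 fell, 3 rose and 7 were not called, a share of 58.8% beside 22.8% of all genes, with a median log2 fold change of -0.07. The genes were chosen with earlier results of these data known. MAFF, another small MAF protein, fell most, from 24.1, 25.1 and 26.4 CPM in the control to 14.6, 15.8 and 14.6 CPM in the knockdown samples (log2 fold change -0.75, SE 0.075, edgeR adjusted p = 0.00019). The third small MAF protein, MAFK, was at -0.02 on the log2 scale (edgeR adjusted p = 0.75), which was 0.03 with scaling by library size alone. BACH1, the heme-sensing repressor that competes with NRF2 for the same elements, fell from 74.4, 72.8 and 78.1 CPM to 58.6, 55.8 and 57.9 CPM (log2 fold change -0.39, SE 0.041, edgeR adjusted p = 0.00026). MAFF and BACH1 were called in each of the 14 other fits, and BACH1 was at -0.24 with the GC trend removed. A partner and a competitor of NRF2 were therefore both lower in all 3 knockdown libraries.

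On the degradation side, CUL3, the scaffold of the ligase that KEAP1 serves, had 136, 131 and 137 CPM in the control and 122, 119 and 118 CPM in the knockdown samples and fell (log2 fold change -0.17, edgeR adjusted p = 0.0068). With the GC trend removed its log2 fold change was -0.02 (edgeR adjusted p = 0.77). SQSTM1, the autophagy receptor p62 that sequesters KEAP1 and is itself an NRF2 target, had 341, 341 and 338 CPM in the control and 300, 301 and 303 CPM in the knockdown samples (log2 fold change -0.18, edgeR adjusted p = 0.0022). SYVN1, a ubiquitin ligase of the endoplasmic reticulum that can act on NRF2 (-0.23), and NFE2L1, the NRF2 relative that controls proteasome genes (-0.15, and -0.10 with library size alone), also fell. Of the genes that rose, DPP3 (0.28) and PALB2 (0.28) encode proteins that bind KEAP1 and NFE2 (0.56) is the related factor of blood cells, with 4.58 CPM in the control and 6.75 CPM in the knockdown group. PALB2 was not called without control replicate 3, without knockdown replicate 1 or without knockdown replicate 2 (edgeR adjusted p up to 0.080).

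Other NRF2 target genes did not follow a single direction. Of 33 listed and tested, 5 fell, 3 rose and 25 were not called by edgeR's adjusted p, a share of 24.2% beside 22.8% of all genes, with a median log2 fold change of -0.05. The log2 fold change was below 0 for 23 of the 33, and it ranged from -1.10 to 0.25 in the genes not called. Among the called genes EPHX1, microsomal epoxide hydrolase, fell most, from 35.9, 33.95 and 39.1 CPM to 24.8, 24.0 and 25.6 CPM (log2 fold change -0.55, SE 0.067, edgeR adjusted p = 0.00052). The export pump ABCC3 (-0.36), the cystine transporter SLC7A11 (-0.29), glutathione reductase GSR (-0.21) and SQSTM1 were the others that fell. SLC7A11 was not called without knockdown replicate 2, without knockdown replicate 3, with no filter or with limma on FPKM, and with the GC trend removed it was at -0.13 (edgeR adjusted p = 0.18). ABCC3 was not called without control replicate 1, without knockdown replicate 3, with no filter or with limma on FPKM (adjusted p up to 0.070).

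The genes that rose were IDH1 (0.31), ME1 (0.26) and PGD (0.24), 3 enzymes that make NADPH, and each was called in all 14 other fits. ME1 was at 0.40 with the GC trend removed. PGD, an enzyme of the pentose phosphate pathway, had 212, 208 and 205 CPM in the control and 238, 246 and 254 CPM in the knockdown samples. The subunits of glutamate-cysteine ligase, which starts glutathione synthesis, were not called, with log2 fold changes of 0.03 for the catalytic GCLC (edgeR adjusted p = 0.72) and -0.19 for the modifier GCLM (edgeR adjusted p = 0.058). GCLM was called by DESeq2 (-0.18) and without control replicate 2 (-0.26), and with the GC trend removed it was at -0.03 (edgeR adjusted p = 0.77). The ferritin chains FTH1 (-0.06, edgeR adjusted p = 0.13) and FTL (-0.11, edgeR adjusted p = 0.17), at 1130 and 844 FPKM in the control group, did not pass the threshold, though FTL was called without knockdown replicate 3 (-0.17).

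**Figure D5:**
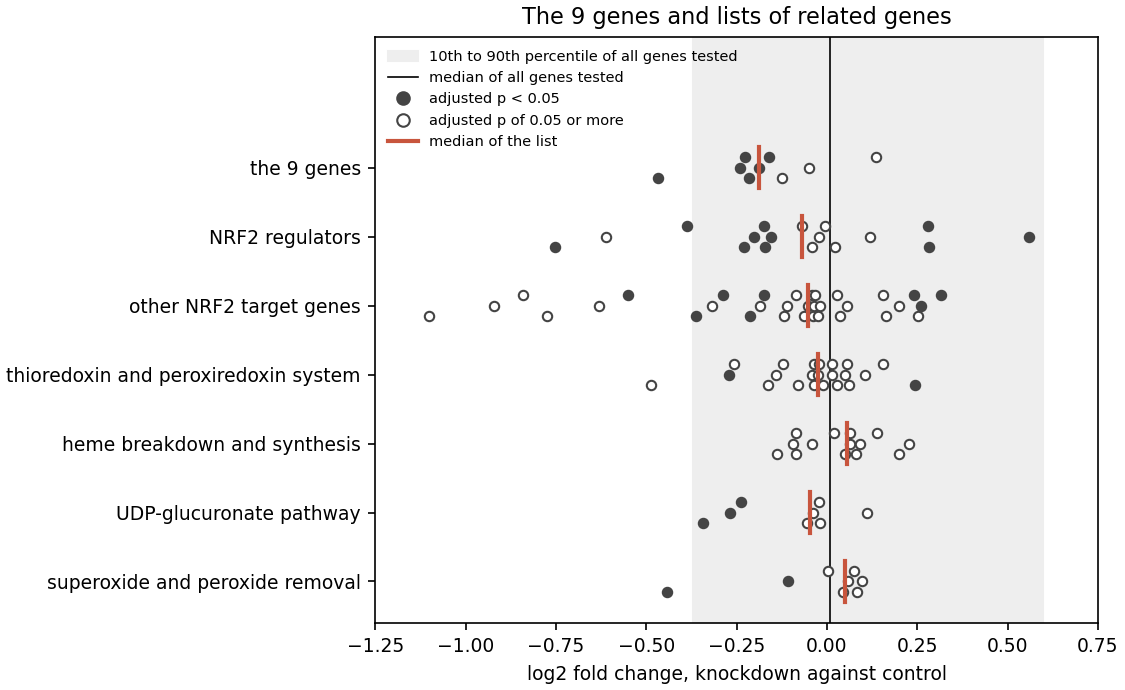
Log2 fold changes (x axis) of the 9 genes and of the genes in 6 lists of related genes, with filled points for an edgeR adjusted p below 0.05, red bars for list medians and shading for the 10th to 90th percentile of all genes tested (-0.37 to 0.60). The median of the 9 genes is at -0.19 and those of the lists are between -0.07 and 0.056, and no heme gene is filled.

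Beyond TXNRD1 and SRXN1, few genes of the thioredoxin and peroxiredoxin system were called. Of 22 listed and tested genes, 1 fell and 1 rose, a share of 9.09% beside 22.8% of all genes, with a median log2 fold change of -0.02. The gene that fell was SESN2, a stress-induced sestrin (-0.27, edgeR adjusted p = 0.015), and the gene that rose was TXN2, mitochondrial thioredoxin (0.24, edgeR adjusted p = 0.035). SESN2 was not called without control replicate 2 or without knockdown replicate 1, and TXN2 lost its call in 4 fits with a sample left out and with no filter. TXN, the substrate of TXNRD1, had 400.5 ± 26.7 CPM in control and 393 ± 32.1 CPM in knockdown samples (SD, n = 3; log2 fold change -0.03, 95% interval -0.17 to 0.12, edgeR adjusted p = 0.82). PRDX1, an abundant peroxiredoxin and a substrate of SRXN1, had a log2 fold change of 0.06 (95% interval -0.029 to 0.14, edgeR adjusted p = 0.34) but was called with library size alone (0.11). The thioredoxin-binding TXNIP was at 0.02 (edgeR adjusted p = 0.84).

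No gene of heme breakdown and synthesis was called among the 14 tested by edgeR's adjusted p, where 22.8% of all genes were, and their median log2 fold change was 0.056. At an unadjusted p below 0.05 there were 2, while DESeq2 called 1 and limma on FPKM 3. HMOX2, the constitutive heme oxygenase, was at 0.06 on the log2 scale (edgeR adjusted p = 0.32) and was called with limma on FPKM (0.11). BLVRB, a biliverdin reductase, was at -0.09 (edgeR adjusted p = 0.42). Of the UDP-glucuronate genes, 9 were listed, 8 were tested and 3 fell with UGDH, a share of 37.5% beside 22.8% of all genes, with a median log2 fold change of -0.05. UGP2, which makes the UDP-glucose that UGDH oxidises, had 208, 205 and 212 CPM in the control and 170, 177 and 173 CPM in the knockdown samples (log2 fold change -0.27, SE 0.033, edgeR adjusted p = 0.00052). SLC35D1, which carries UDP-glucuronate into the endoplasmic reticulum (-0.34, edgeR adjusted p = 0.0015), and the lysosomal glucuronidase GUSB (-0.24, edgeR adjusted p = 0.0037) also fell, and all 3 were called in each of the 14 other fits. With the GC trend removed UGP2 was at -0.12 and SLC35D1 at -0.22. UXS1, which turns UDP-glucuronate into UDP-xylose, was not called (-0.06, edgeR adjusted p = 0.53). XYLT1 was listed at 0 in all samples.

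Of 8 genes for the removal of superoxide and peroxides, 2 fell and none rose, a share of 25% beside 22.8% of all genes, with a median log2 fold change of 0.051. SOD2, the mitochondrial superoxide dismutase, fell from 350, 345 and 344 CPM in the control to 245, 272 and 247 CPM in the knockdown samples (log2 fold change -0.44, SE 0.043, edgeR adjusted p = 0.00017) and was called in all 14 other fits. PON2, a paraoxonase, fell by 0.11 on the log2 scale (edgeR adjusted p = 0.042) and was called in 5 of those fits. It was at -0.05 with library size alone (edgeR adjusted p = 0.31), at -0.06 with limma on FPKM (adjusted p = 0.20) and at -0.03 with the GC trend removed (edgeR adjusted p = 0.60). PON2 was not called without control replicate 1, control replicate 2, control replicate 3, knockdown replicate 2 or knockdown replicate 3.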

How the data were processed

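LM3 cells (3 vector control and 3 ZNF706 knockdown samples, grouped by the treatment label) were analysed by RNA-seq. Per the labels the authors used cutadapt 1.9, FastQC and GRCh38, and reads were mapped with HISAT2. The authors deposited raw read counts and FPKM values for each gene in the same table. The counting program, strand setting and annotation release are not given in the sources used here. Of the genes shared with GENCODE release 29 (GRCh38), 99.88% overlapped their position there.

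Low counts were removed by filterByExpr. TMM scaling and the quasi-likelihood F test of edgeR 4.0.16 (R 4.3.3) followed, group as the only term, with Benjamini-Hochberg adjustment over 18390 genes and a threshold of 0.05. The standard error was obtained as the size of the log2 fold change over the square root of F. The fit was tested on simulated data. Alternatives were DESeq2 1.42.0, other scalings and filters, the replicate number as a block, each sample left out, limma 3.58.1 on log2(FPKM + 0.1) where FPKM averaged 1 or more, and a loess trend on GC content (longest transcript) as an offset. The 9 genes, the lists and the tests were chosen with earlier results of these data known. The lists were described by counts and medians, and no set test was run. Named were the 9 genes, ZNF706, 20 listed genes whatever their values (1 of them is not reported here), the 3 largest rises and falls of each list with an adjusted p below 0.05, and the 5 genes nearest in pattern to the member that fell most, and genes that overlap a member. The markers named were chosen from their lists after their values were seen.

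The chi-square value per gene between replicates was 12.8 to 22.2 over 14132 genes, so no 2 samples were repeats of a single library. Depth was 62684076 to 69057423 counts.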

Additional observations from a re-analysis of the deposited data

How the results depend on the processing

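Each gene among the 9 had 14 other fits (13 for OSGIN1). ZNF706, TXNRD1 and SRXN1 kept their direction and call in all of them, and KEAP1 kept its direction and was never called. With library size alone MAFG (-0.11), NQO1 (-0.14), OSGIN1 (-0.41) and UGDH (-0.17) lost their calls, with limma on FPKM MAFG (-0.11), NQO1 (-0.14) and UGDH (-0.18), with no filter NQO1 (-0.19), OSGIN1 (-0.47) and UGDH (-0.23), with the GC trend removed NQO1 (-0.14) and UGDH (-0.093), and with DESeq2 OSGIN1 (-0.46). With 1 sample left out the log2 fold changes ranged from -0.17 to -0.091 for NFE2L2, -0.18 to -0.13 for MAFG, -0.23 to -0.14 for NQO1, -0.52 to -0.40 for OSGIN1, -0.15 to 0.077 for HMOX1 and -0.27 to -0.18 for UGDH. HMOX1 was above 0 with library size alone (0.0043) and limma on FPKM (0.0048). The causes were not tested.

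Same-numbered samples of the groups did not deviate together over 14125 genes taken as a whole (correlations of 0.026, -0.034 and 0.023). Those of differently numbered samples were -0.053 to 0.032. Correlations over all genes cannot exclude an effect of the replicate number on some genes, which was not tested. With the replicate block 4361 genes were called, against 4192 without it. NFE2L2 (-0.12, edgeR adjusted p = 0.040) and FTL (-0.11, edgeR adjusted p = 0.029) were then called and OSGIN1 was not (-0.47, edgeR adjusted p = 0.056).

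The number of the 9 genes called was 2 with library size alone and with limma on FPKM, 3 with no filter, 1 by the study's limits on p and fold change, applied to the edgeR fit, and 3 to 4 with 1 sample left out. OSGIN1 was not tested with limma on FPKM. Over all genes, 2648 to 3424 were called with 1 sample left out, 1500 to 1939 lower and 1148 to 1485 higher. Lower calls numbered 1518 with library size alone, 1471 with the GC trend removed and 1081 by those limits, and higher calls 1253 with no filter. By these limits the counts were 3 regulators, 3 other targets, 0 thioredoxin genes, 1 UDP-glucuronate gene and 1 peroxide gene. Thioredoxin genes numbered 4 with library size alone and with the GC trend removed, 1 with no filter and 0 to 3 with 1 sample left out. Heme genes numbered 1 with DESeq2, a mean count of at least 50 or the replicate block, 2 with library size alone, 3 with limma on FPKM and 0 to 1 with 1 sample left out. Peroxide genes numbered 1 with library size alone, no filter, limma on FPKM or the GC trend removed and 1 to 2 with 1 sample left out.

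Genes without a call that changed sign were MAFK with library size alone (0.033) and limma on FPKM (0.028), TXN with these (0.028 and 0.022) and the GC trend removed (0.085), UXS1 with the GC trend removed (0.086), and, with 1 sample left out, GCLC (-0.012 to 0.059), TXN (-0.087 to 0.031) and TXNIP (-0.026 to 0.035). OSGIN1 had the fewest counts of the 9 genes, at 213 to 312 per sample.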
